A study of Rattus norvegicus with 18 samples.

Results

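The enzymes described here carry fatty acids through beta-oxidation in the mitochondrion. The set held 10 genes, Slc25a20, Cpt2, Acadvl, Acadl, Acadm, Acads, Hadha, Hadhb, Acaa2 and Decr1, of the 14217 genes measured in rat liver. They were chosen by gene symbol and not by their values, though earlier results of these data were known. Each gene was read from its brightest probe set, by the mean over all 18 arrays. All 10 had a probe set, and none was lost to a filter on low signal, since none was applied.

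RNA came from whole livers of adult male Sprague Dawley rats, an outbred laboratory strain, and was hybridised to Affymetrix arrays. In the group called HFD+PE the rats received a high fat diet and a daily dose of 150 mg/kg of an extract of pomegranate skin. The HFD group received the high fat diet without the extract, and the chow group an ordinary chow diet. Feeding lasted 8 weeks, and every rat was fasted overnight before the liver was taken, so all levels below are those of fasted animals. The labels call the HFD livers fatty, and the HFD+PE and chow livers normal. What the diets and the extract were made of is not stated, and no group received the extract on chow among the samples analysed here. The series title names non-alcoholic fatty liver disease and its prevention by the extract as the subject.

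Each group had 6 arrays. In 3 pairs of arrays (chow 3 and 4, HFD 1 and 2, HFD+PE 3 and 4) 0 probe sets lay over 2 log2 units apart, against 18 to 109 in the other 150 pairs, and each of these pairs was averaged and counted as 1 animal. This left 15 animals, 5 per group; the averaged animals are written chow 3-4, HFD 1-2 and HFD+PE 3-4. Since every array is labelled as its own biological replicate, the averaging is an inference from the values. The means of 9 measured hepatocyte markers, such as Alb, the albumin gene, lay between 12.56 and 14.96 on the log2 scale, and 6 markers of skeletal and heart muscle between 2.93 and 3.77. Arrays have no read depth. The deposited values were rounded to steps of 0.1, and the number of animals and this rounding limit the precision.

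Long-chain fatty acids cross the inner mitochondrial membrane as carnitine esters and are then shortened in a repeated cycle. In each round an acyl-CoA dehydrogenase makes a double bond, a hydratase and a dehydrogenase turn it into a keto group, and a thiolase cuts off acetyl-CoA. In the fasted liver this acetyl-CoA feeds ketone body synthesis, and the nuclear receptor PPAR-alpha is a known activator of many of the genes. The cycle is divided between enzymes that differ in the chain length they prefer.

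Promoter windows of 300 bases, 250 before and 50 after the annotated start, were found in the RefSeq table (build GRCr8) for 7 of the 10 genes. The 4 below are shown because they belong to a gene pair that shares its start region and to the genes at both ends of a pattern seen between animals. Hadhb and Hadha lie head to head on chromosome 6 with 243 bases between their gene models. Their windows, chr6:31907451-31907750 (minus strand) and chr6:31907551-31907850 (plus strand), share 200 bases. Slc25a20, at chr8:118243323-118243622 (plus strand), was the gene whose level followed the RNA-quality measure most closely in the fit described below, and Acadvl, at chr10:55236656-55236955 (minus strand), the one that followed it least. The gene models of Hadhb and Acadvl reach bases 31907557 and 55236786, upstream of the annotated starts used for their windows. Some bases counted as before the start thus lie inside these gene models. Each is written 5′ to 3′ on the strand of its gene, and capitals mark every match to the GC box GGGCGG or the nuclear receptor hexamer AGGTCA on either strand.
Hadhb: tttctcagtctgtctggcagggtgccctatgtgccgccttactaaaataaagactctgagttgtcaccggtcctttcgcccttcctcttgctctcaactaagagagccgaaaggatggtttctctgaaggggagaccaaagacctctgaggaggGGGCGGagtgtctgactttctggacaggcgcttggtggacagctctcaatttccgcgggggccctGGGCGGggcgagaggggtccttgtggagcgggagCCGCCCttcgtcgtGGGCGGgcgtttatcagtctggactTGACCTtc
Hadha: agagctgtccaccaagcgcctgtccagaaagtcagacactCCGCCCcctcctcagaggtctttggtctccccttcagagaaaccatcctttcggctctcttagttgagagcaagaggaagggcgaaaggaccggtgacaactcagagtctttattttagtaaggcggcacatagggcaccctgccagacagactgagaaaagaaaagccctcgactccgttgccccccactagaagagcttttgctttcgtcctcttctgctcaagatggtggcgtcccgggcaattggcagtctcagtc
Slc25a20: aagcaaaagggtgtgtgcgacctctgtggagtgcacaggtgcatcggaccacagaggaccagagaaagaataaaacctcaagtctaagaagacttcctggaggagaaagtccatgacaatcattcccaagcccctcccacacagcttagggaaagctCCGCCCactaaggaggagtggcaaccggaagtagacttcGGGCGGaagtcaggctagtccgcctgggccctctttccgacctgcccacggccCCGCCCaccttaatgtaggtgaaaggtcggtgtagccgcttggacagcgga
Acadvl: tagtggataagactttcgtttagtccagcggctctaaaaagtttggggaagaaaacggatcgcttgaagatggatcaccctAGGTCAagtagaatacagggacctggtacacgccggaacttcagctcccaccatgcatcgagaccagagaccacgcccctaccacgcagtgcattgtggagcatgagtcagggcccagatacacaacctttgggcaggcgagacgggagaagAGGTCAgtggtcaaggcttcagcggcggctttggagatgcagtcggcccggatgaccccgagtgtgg
The GC box, a binding motif of Sp-family factors, was present in 6 of the 7 windows, and in 33.1% of all 33469 windows in the table. Of the windows printed, Acadvl held none, Hadha held 1, Slc25a20 held 3 and Hadhb held 4. The Hadha match, at base -210, and the Hadhb match at base -96 are the same site in the shared bases, counted in both windows. The hexamer AGGTCA was present in 2 of the 7, against 16.2% of all windows: Acadvl held it at bases -169 and -17 from the start, and Hadhb at base 43 on the opposite strand. The DR1 element, that is AGGTCA repeated in the same direction after 1 base of any kind and the form bound by PPAR-alpha with its partner RXR, was in 0 of the 7 windows and in 0.0538% of all windows. It was searched in this exact spelling on both strands, and each copy would also count as the hexamer. These matches describe letters in short windows and not binding.

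No enzyme passed an adjusted p of 0.05 in any of the 3 comparisons (limma with Benjamini-Hochberg adjustment over all 14217 genes), and 0% of all genes did so in each. The sizes were small: the 30 changes lay between -0.19 and 0.38 on the log2 scale, or between 0.877-fold and 1.301-fold. Against chow, HFD+PE livers had a median change of 0.20 over the 10 enzymes, with 8 of 10 above 0, beside a median of 0.01 over all genes, of which 51.1% were above 0. Against HFD, HFD+PE livers had a median of 0.085, with 9 of 10 above 0, beside 0.00 and 49.2% over all genes. HFD against chow gave a median of 0.055, with 6 of 10 above 0, beside 0.00 and 49.9% over all genes. The 3 comparisons share animals pairwise and are not independent of each other. Single animals moved these medians: for HFD+PE against chow the median was 0.116 without chow 2, and for HFD against chow 0.025 without it. Leaving out HFD 3 gave 0.045 for HFD+PE against HFD and 0.086 for HFD against chow, and leaving out HFD 6 gave 0.175 and -0.001. For HFD+PE against HFD the median was also 0.056 without HFD 4 and 0.150 without HFD+PE 1.

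At an unadjusted p under 0.05, 2 of the 10 enzymes, Decr1 and Acaa2, were higher in HFD+PE than in chow, where 6% of all genes were; 0 were lower, against 5.14% of all genes. The counts were 0 higher and 0 lower for HFD+PE against HFD (1.64% and 1.06% of all genes), and 0 and 0 for HFD against chow (4.08% and 3.57% of all genes). In the moderated F test for any difference between the 3 groups, 1 enzyme, Decr1, had an unadjusted p under 0.05, beside 8.14% of all genes. For 0 enzymes did 2 groups lie apart without overlap. Among all genes this was so upward in 0.682% and downward in 0.732% for HFD+PE against chow, in 0.0774% and 0.0563% for HFD+PE against HFD, and in 0.309% and 0.211% for HFD against chow. The count of 2 for HFD+PE against chow became 1 without any one of chow 2, chow 6, HFD+PE 3-4, 5 or 6 (Decr1 in each case). It became 3 without chow 5, and 4 without HFD 6 or HFD+PE 1. Of all genes, fewer than the 6% of the reported fit were higher without chow 2, chow 6 or HFD 6. More than that share were higher without chow 5 or HFD+PE 1. For HFD+PE against HFD the count of 0 became 3 when HFD 6 was left out, 2 when HFD+PE 1 was and 1 when HFD 4 was. Of all genes, fewer than the 1.64% of the reported fit were higher there without HFD 6, and more without HFD+PE 1 or HFD 4. For HFD against chow the count of 0 became 2 higher without HFD 3, and 1 lower without HFD 6. The labels give 1 liver per sample and no litter or cage, so the p-values measure only the spread between these animals. In whole-liver RNA, fewer cells of a type and less RNA per cell cannot be told apart.

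**Figure D1:**
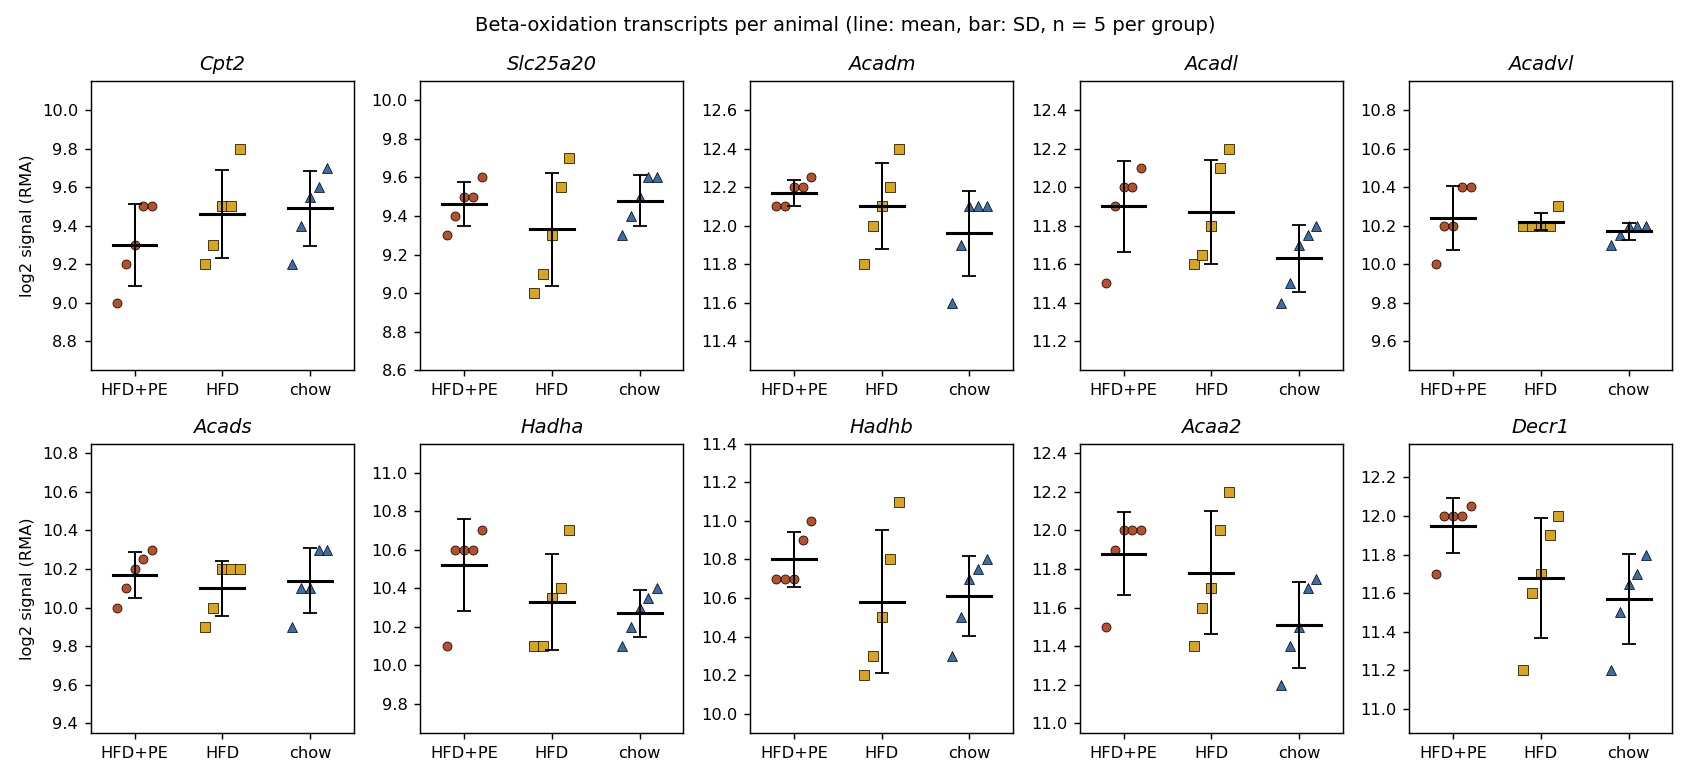
Log2 signal (RMA) of each beta-oxidation gene in each animal, by group, HFD+PE left, HFD centre and chow right; the line is the mean, the bar the SD, n = 5 animals per group. The groups overlap for every gene, and the single low HFD+PE point of Acadl, Hadha, Acaa2 and Decr1 is the same animal, HFD+PE 1.

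The 2 genes of the carnitine shuttle were the only ones whose mean was not higher in HFD+PE than in chow. Slc25a20 encodes the carnitine-acylcarnitine translocase of the inner membrane. Its log2 signal was 9.3, 9.6, 9.5, 9.5 and 9.4 in the HFD+PE animals 1, 2, 3-4, 5 and 6, 9.55, 9.0, 9.1, 9.3 and 9.7 in the HFD animals 1-2, 3, 4, 5 and 6, and 9.6, 9.3, 9.6, 9.5 and 9.4 in the chow animals 1, 2, 3-4, 5 and 6. The HFD animals were the most scattered, holding both the highest value and the 2 lowest, and HFD+PE and chow covered the same range. The change was 0.13 for HFD+PE against HFD (SE 0.12, 95% interval -0.12 to 0.38), -0.02 for HFD+PE against chow (SE 0.12, -0.27 to 0.23) and -0.15 for HFD against chow (SE 0.12, -0.40 to 0.10).

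Cpt2 encodes carnitine palmitoyltransferase 2, which returns the acyl group to CoA inside the mitochondrion. Its log2 signal was 9.3, 9.5, 9.5, 9.2 and 9.0 in HFD+PE, 9.5, 9.2, 9.3, 9.5 and 9.8 in HFD, and 9.6, 9.2, 9.55, 9.7 and 9.4 in chow, with the animals in the order given for Slc25a20, as in all such lists below. HFD+PE 6 was the lowest animal of all, and 0 HFD+PE animals lay above the highest animal of either other group. Cpt2 was the one enzyme with a lower mean in HFD+PE than in both other groups: by -0.16 against HFD (SE 0.13, 95% interval -0.43 to 0.11) and by -0.19 against chow (SE 0.13, -0.46 to 0.08), neither past the test. HFD and chow differed by -0.03 (SE 0.13).

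The acyl-CoA dehydrogenases catalyse the first step of the cycle and are named for the chain length they prefer. Acadvl, the very-long-chain enzyme, varied least: it was 10, 10.4, 10.4, 10.2 and 10.2 in HFD+PE, 10.2 in 4 HFD animals and 10.3 in HFD 4, and 10.1 to 10.2 in chow. Its group means were 10.24 ± 0.17 in HFD+PE, 10.22 ± 0.04 in HFD and 10.17 ± 0.04 in chow (SD, n = 5 each), a range of means smaller than the rounding step of the values. The HFD and chow SDs were themselves below that step, so that the spread of this gene in those groups cannot be told from rounding. The 95% interval of HFD+PE against HFD, -0.14 to 0.18, leaves folds of 0.905 to 1.14.

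Acadl, the long-chain enzyme, had signals of 11.5, 12.1, 12.0, 11.9 and 12.0 in HFD+PE, 11.65, 11.6, 11.8, 12.1 and 12.2 in HFD, and 11.7, 11.4, 11.75, 11.8 and 11.5 in chow. In HFD+PE 4 of 5 animals, and in HFD 2 of 5, lay above the highest chow animal, while HFD+PE 1 lay near the bottom of the chow range. The changes were 0.27 for HFD+PE against chow (SE 0.13, limma adjusted p = 0.48) and 0.24 for HFD against chow (SE 0.13, adjusted p = 0.70), and 0.03 (SE 0.13) between the 2 high fat groups. All 3 were within the spread of the animals.

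Acadm, the medium-chain enzyme, was 12.1, 12.2, 12.25, 12.1 and 12.2 in HFD+PE, 12.1, 12.0, 11.8, 12.2 and 12.4 in HFD, and 12.1, 11.6, 12.1, 12.1 and 11.9 in chow. All 5 HFD+PE animals lay above the chow mean, but 3 chow animals stood level with the lowest HFD+PE ones. The HFD+PE animals were also the most alike, with an SD of 0.07, against 0.22 in HFD and 0.22 in chow; a difference in spread was not tested. The change against chow was 0.21 for HFD+PE (SE 0.11, 95% interval -0.03 to 0.45) and 0.14 for HFD (SE 0.11). Acads, the short-chain enzyme, ran from 10 to 10.3 in HFD+PE, from 9.9 to 10.2 in HFD and from 9.9 to 10.3 in chow, and its 3 changes lay between -0.04 and 0.07.

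Hadha and Hadhb encode the alpha and beta subunits of the mitochondrial trifunctional protein, which carries out the remaining steps of the cycle on long chains. Hadha, the subunit with hydratase and dehydrogenase activity, was 10.1, 10.7, 10.6, 10.6 and 10.6 in HFD+PE, 10.35, 10.1, 10.4, 10.1 and 10.7 in HFD, and 10.3, 10.2, 10.35, 10.4 and 10.1 in chow. In HFD+PE 4 of 5 animals lay above every chow animal, and HFD+PE 1 was level with the lowest chow animal. Hadhb, the thiolase subunit, was 10.7, 10.9, 10.7, 11.0 and 10.7 in HFD+PE, 10.5, 10.3, 10.2, 10.8 and 11.1 in HFD, and 10.7, 10.3, 10.75, 10.8 and 10.5 in chow. All 5 HFD+PE animals lay above the HFD mean and above the chow mean of Hadhb, but HFD 6 was the highest animal.

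Against HFD the changes of HFD+PE were 0.19 for Hadha (SE 0.13, 95% interval -0.08 to 0.46) and 0.22 for Hadhb (SE 0.15, -0.09 to 0.53), and against chow 0.25 (SE 0.13, -0.02 to 0.52) and 0.19 (SE 0.15, -0.12 to 0.50). HFD and chow differed by 0.06 for Hadha (SE 0.13) and -0.03 for Hadhb (SE 0.15). The 2 genes lie head to head (windows above), and their deviations from the group means had a Pearson correlation of 0.485 over the 15 animals, below the median of all pairs of the enzymes given further on. Hadha had 2 dimmer probe sets, with mean signals of 6.76 and 3.75. The brighter of them gave 0.25 (SE 0.16) for HFD+PE against HFD and 0.13 (SE 0.16) for HFD+PE against chow. The dimmer one, at 3.75, lay in the range of the muscle markers (2.93 to 3.77) and is no check of the change.

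Acaa2 encodes the mitochondrial 3-ketoacyl-CoA thiolase, which cuts off acetyl-CoA from shorter chains. Its signal was 11.5, 11.9, 12.0, 12.0 and 12.0 in HFD+PE, 11.6, 11.4, 11.7, 12.0 and 12.2 in HFD, and 11.7, 11.2, 11.75, 11.5 and 11.4 in chow. The animals HFD+PE 2, 3-4, 5 and 6, and HFD 5 and 6, lay above the highest chow animal, and HFD+PE 1 at the median of chow. The change was 0.37 for HFD+PE against chow (SE 0.15, a 1.292-fold higher signal with a 95% interval of 1.04 to 1.61, limma unadjusted p = 0.0239, adjusted p = 0.357). It was 0.27 for HFD against chow (SE 0.15, adjusted p = 0.69) and 0.10 for HFD+PE against HFD (SE 0.15). A dimmer probe set of Acaa2 gave 0.35 (SE 0.14), 0.18 (SE 0.14) and 0.17 (SE 0.14) for the same comparisons.

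Decr1 encodes 2,4-dienoyl-CoA reductase 1, an auxiliary enzyme that lets unsaturated fatty acids enter the cycle. Its signal was 11.7, 12.0, 12.05, 12.0 and 12.0 in HFD+PE, 11.6, 11.2, 11.9, 11.7 and 12.0 in HFD, and 11.7, 11.2, 11.65, 11.8 and 11.5 in chow. All HFD+PE animals lay above the HFD mean and above the chow mean, and 4 of 5 above the highest chow animal. The change against chow was 0.38 (SE 0.14, a 1.301-fold higher signal with a 95% interval of 1.06 to 1.6, limma unadjusted p = 0.0147, adjusted p = 0.297), the largest of the 10. Against HFD it was 0.27 (SE 0.14, 95% interval -0.03 to 0.57, adjusted p = 0.99), and HFD against chow gave 0.11 (SE 0.14). Without the animal chow 2, the lowest of its group, the difference from chow was 0.29 for both Decr1 and Acaa2, with unadjusted p-values of 0.0495 and 0.0717.

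**Figure D2:**
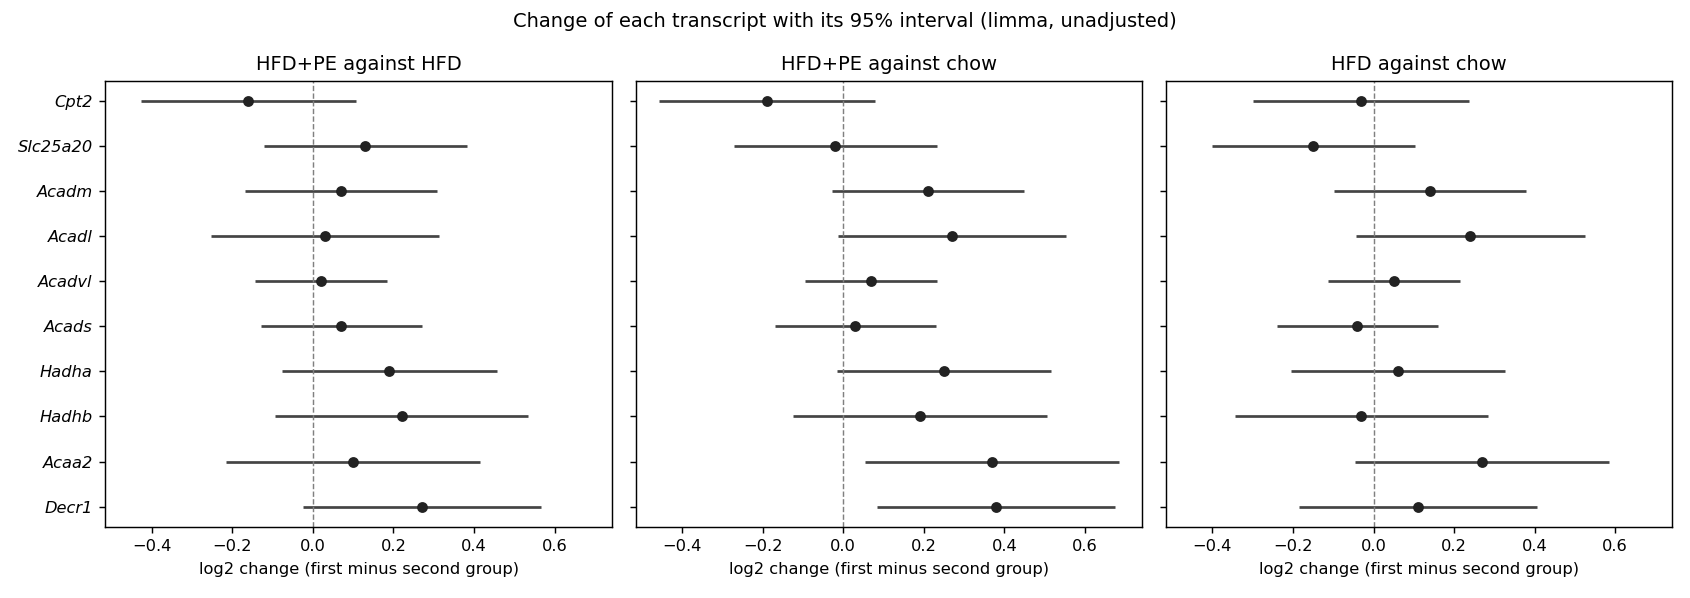
Log2 change of each gene with its unadjusted 95% interval from limma, for HFD+PE against HFD, HFD+PE against chow and HFD against chow (15 animals). Only the intervals of Decr1 and Acaa2 in HFD+PE against chow lie wholly above 0, and Cpt2 is the one gene below 0 in every panel with a mean change of -0.16, -0.19 and -0.03.

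The enzymes moved together from animal to animal inside each group. After each gene was centred on its group means, all 45 pairs of the 10 genes correlated above 0 over the 15 animals, with a median Pearson r of 0.628. The lowest was 0.019, between Acadvl and Hadhb, and the highest 0.91, between Acadl and Acaa2. These correlations describe points that share RNA, array and normalization, and carry no test. In the animals chow 2 and HFD 3 all 10 enzymes lay below their group mean, with a mean deviation of -0.243 and -0.245. In chow 1 and HFD+PE 2 all 10 lay above it, with 0.107 and 0.121, and in HFD 6 it was 9 of 10, with 0.305. HFD+PE 1 had 8 below and 1 above, with -0.199. In chow 2, HFD 3 and HFD 6 the deviation was thus larger than the highest median change between the diets, 0.20.

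**Figure D3:**
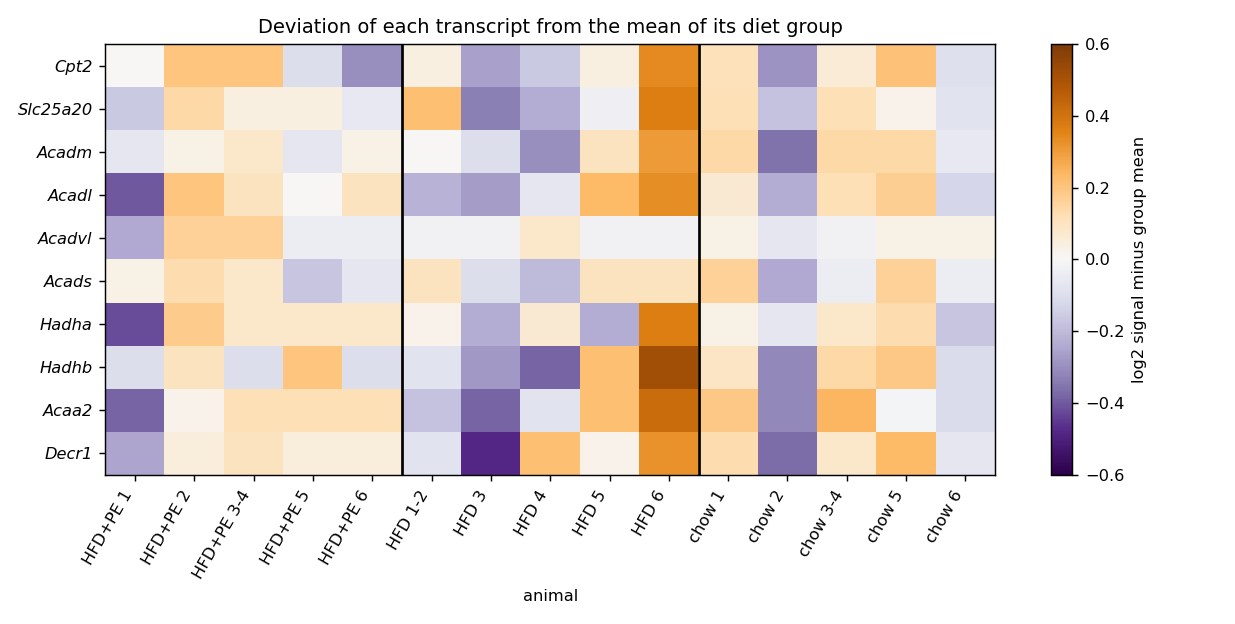
Deviation of each gene (rows) from the mean of its group in each animal (columns, HFD+PE left, then HFD, then chow), in log2 units. Whole columns share a colour: chow 2 and HFD 3 are low, and HFD 6 is high, in nearly all genes.

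The common deviation ran with a measure of RNA quality on the arrays. Affymetrix control probe sets read Gapdh and Actb near the 3′ end and near the 5′ end of the transcript, and a larger 3′ minus 5′ difference is a known sign of RNA that is shorter or less fully copied. The mean difference of the 2 genes was 3.7, 3.0, 3.4, 3.45 and 3.35 log2 units in HFD+PE, 3.075, 3.6, 3.45, 3.5 and 2.6 in HFD, and 3.05, 3.65, 2.775, 2.95 and 3.25 in chow. HFD+PE 1, chow 2 and HFD 3, in which the enzymes were low, had the largest differences of their groups, and HFD 6, in which they were high, the smallest of all. The group means were 3.38 ± 0.25 in HFD+PE, 3.25 ± 0.41 in HFD and 3.14 ± 0.33 in chow (SD, n = 5 each), and the groups overlapped.

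In a fit with the diet groups and this difference as a covariate, the slope was below 0 for all 10 enzymes. It ran from -0.55 for Hadhb to -0.11 for Acadvl, with a median of -0.48 log2 units of signal per log2 unit of difference, beside a median of -0.002 over all genes. At an unadjusted p under 0.05, 9 of the 10 slopes were below 0, beside 6.6% of all genes. At an adjusted p under 0.05 it was 1 of 10, Slc25a20 (slope -0.51, SE 0.10, limma adjusted p = 0.0465), beside 0.204% of all genes. This reading of the slopes and the checks of it that follow were all chosen after seeing the data. Leaving out 1 animal at a time left 7 to 9 of the 10 at an unadjusted p under 0.05, fewest without HFD 6. Over all genes the share below 0 at that level was then 5.16% to 8.04%, and 5.22% without HFD 6. Slc25a20 then kept its adjusted p under 0.05 in 1 case, without HFD 5 (0.0345), and lost it in all others (0.0526 to 0.298, highest without HFD 6). It also lost it with the Gapdh probe sets alone (0.0605) and with the Actb probe sets alone (0.104), and kept it with 18 separate arrays (0.014).

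**Figure D4:**
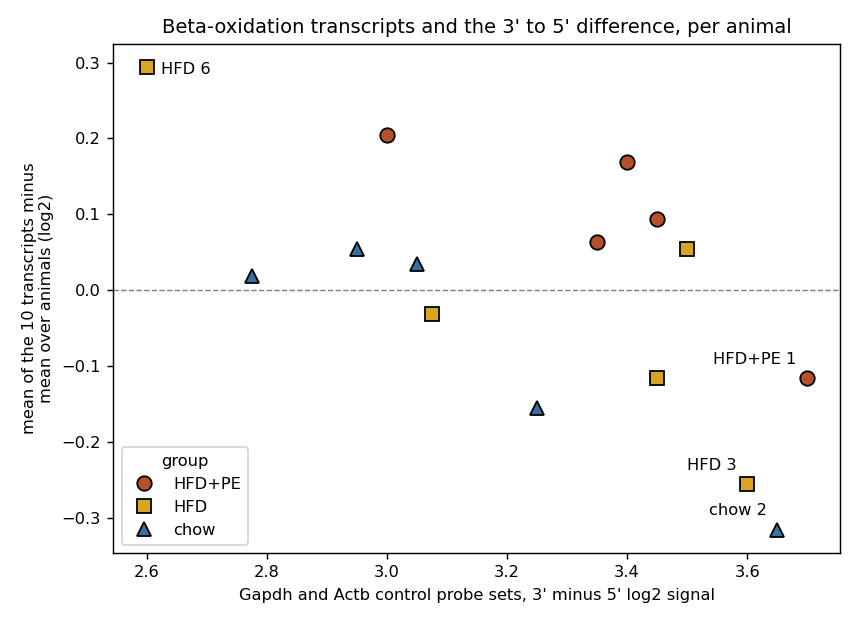
Mean of the 10 enzymes in each animal, relative to the mean over all animals (log2), against the 3′ minus 5′ difference of the Gapdh and Actb control probe sets (log2); 1 point per animal, marked by group. Chow 2, HFD 3 and HFD+PE 1 lie at the lower right and HFD 6 at the upper left. Of the HFD+PE animals 4 of 5 lie above 0, and HFD and chow animals lie on both sides of 0.

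With the covariate in the fit all 10 changes in HFD+PE were shifted upward. This direction was fixed by the slopes, all below 0, and by the group mean of the difference, highest in HFD+PE. The slopes were fitted in these same animals, so the counts that follow are not independent of them. The median change against chow was 0.32, with 9 of 10 above 0, and 6 of 10 were higher at an unadjusted p under 0.05, beside 6.89% of all genes, and 0 were lower, beside 5.94%. The 6 were Decr1 (0.50, SE 0.11), Acaa2 (0.50, SE 0.12), Acadl (0.39, SE 0.11), Hadha (0.37, SE 0.09), Hadhb (0.33, SE 0.12) and Acadm (0.31, SE 0.09). Against HFD the median was 0.149 and 4 of 10 were higher at an unadjusted p under 0.05, beside 1.87% of all genes, and 0 lower, beside 1.1%. The 4 were Decr1 (0.34, SE 0.11), Hadhb (0.30, SE 0.11), Hadha (0.26, SE 0.09) and Slc25a20 (0.20, SE 0.08). HFD against chow gave a median of 0.088 and 3 of 10, Acaa2 (0.33, SE 0.12), Acadl (0.29, SE 0.11) and Acadm (0.19, SE 0.09), beside 5.03% of all genes, and 0 lower, beside 4.71%. None of the 10 passed an adjusted p of 0.05 in any of these fits, and the lowest was 0.119, for Decr1 against chow. Cpt2 stayed below 0 in HFD+PE, at -0.10 against HFD and -0.08 against chow. How much of any difference between the diets comes from RNA quality was not tested.

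The slope was not shared by all liver genes. Of the TCA cycle genes, 11 of 16 measured had a slope below 0 at an unadjusted p under 0.05, and of 20 further genes of mitochondrial beta-oxidation and related acyl-CoA breakdown, 11. Of 15 peroxisomal genes it was 7, of 20 regulators of the pathway 2, of the 9 hepatocyte markers 0 and of 10 macrophage markers 0. Over all genes the share was 6.6%. The median slopes were -0.33 for the TCA cycle, -0.33 for the further mitochondrial genes and -0.31 for the peroxisomal ones, against -0.48 for the 10 enzymes. A difference between these lists was not tested.

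Other measures that moved with the groups stand beside these results. Markers of macrophages and Kupffer cells, the resident macrophages of the liver, were lower in HFD+PE than in chow for 9 of the 10 measured, with a median change of -0.82. Their mean level ran from 7.50 to 8.43 in HFD+PE, from 7.80 to 8.72 in HFD and from 8.48 to 9.42 in chow, with chow 2 highest. The dimmest of them, Adgre1, averaged 5.32, and the brightest, Clec4f, 10.55. Of the 10, 9 were lower at an unadjusted p under 0.05, beside 5.14% of all genes, and 0 at an adjusted p under 0.05. Stellate cell and matrix markers were lower in HFD+PE than in chow for all 9 measured, with a median change of -0.35. Of these, 5 were lower at an unadjusted p under 0.05, beside 5.14% of all genes, and 0 at an adjusted p under 0.05. Their mean level ran from 6.26 to 6.6 in HFD+PE, from 6.36 to 6.78 in HFD and from 6.76 to 6.96 in chow, and like the macrophage means those of HFD+PE and chow did not overlap. Vim, an intermediate filament gene of stellate and other non-parenchymal cells, was at -0.71 (SE 0.13, limma unadjusted p = 4.75e-05, adjusted p = 0.104). In HFD against chow Vim was at -0.60 (SE 0.13). Macrophage markers were lower there for all 10 measured (median -0.54), and stellate and matrix markers for 8 of 9 (median -0.22). At an unadjusted p under 0.05, 6 and 3 were lower, beside 3.57% of all genes. In HFD+PE against HFD, 9 of 10 and 7 of 9 were below 0 (medians -0.33 and -0.13). At an unadjusted p under 0.05, 0 and 0 were lower, beside 1.06% of all genes. Hepatocyte marker means overlapped, at 13.79 to 13.90 in HFD+PE, 13.69 to 13.88 in HFD and 13.76 to 13.90 in chow. The hybridisation controls, transcripts added before hybridisation, were bright on 5 arrays, 2 of HFD+PE, 0 of HFD and 3 of chow. A term for that set had an adjusted p between 0.517 and 0.971 for the enzymes. With it in the fit, Decr1 was at 0.336 and Acaa2 at 0.334 in HFD+PE against chow. The part of macrophage and stellate cell RNA in the enzymes' changes was not tested.

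Genes of the steps before the shuttle had changes of both signs. Over 15 genes of fatty acid activation and carnitine transfer the median change was 0.13 in HFD+PE against chow. At an unadjusted p under 0.05, 1 was higher and 1 lower, beside 6% and 5.14% of all genes. Slc27a2, an acyl-CoA synthetase of very long chains, was higher by 0.25 (SE 0.08), with 13.53 ± 0.07 in HFD+PE, 13.46 ± 0.15 in HFD and 13.28 ± 0.13 in chow (SD, n = 5 each). Slc27a5, the bile acyl-CoA synthetase, was lower by -0.43 (SE 0.16), with 11.71 ± 0.29 in HFD+PE, 11.92 ± 0.19 in HFD and 12.14 ± 0.34 in chow. Slc22a5, the plasma membrane carnitine transporter, was at 8.81 ± 0.28 in HFD+PE, 8.55 ± 0.10 in HFD and 8.82 ± 0.08 in chow, a change of 0.26 (SE 0.11) for HFD+PE against HFD. Acsm3, a medium-chain synthetase, was at 0.50 (SE 0.24) against chow. None of these passed an adjusted p of 0.05, nor did any gene of the lists that follow.

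Most of the further mitochondrial genes had changes above 0 against chow. Of 20 measured, 17 were above 0 in HFD+PE against chow (median 0.14) and 18 in HFD against chow (median 0.105), beside 51.1% and 49.9% of all genes. At an unadjusted p under 0.05, 2 and 2 were higher, beside 6% and 4.08% of all genes. Ech1, a dienoyl-CoA isomerase present in mitochondria and peroxisomes, was at 0.52 against chow (SE 0.17) and 0.32 against HFD (SE 0.17). Acat1, the acetoacetyl-CoA thiolase, was at 0.46 (SE 0.19) and 0.27 (SE 0.19). Mmut, the methylmalonyl-CoA mutase, was at 10.06 ± 0.11 in HFD+PE, 10.30 ± 0.21 in HFD and 9.92 ± 0.29 in chow (SD, n = 5 each), highest in HFD. Acad8, an acyl-CoA dehydrogenase of valine breakdown, was at 0.13 (SE 0.08) in HFD+PE and 0.19 (SE 0.08) in HFD, both against chow.

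Downstream, 3 of 5 listed genes of ketone body synthesis and export were measured, among them Acat1, already counted above with the further mitochondrial genes. Bdh1, the 3-hydroxybutyrate dehydrogenase, was at 11.11 ± 0.21 in HFD+PE, 10.82 ± 0.08 in HFD and 10.67 ± 0.25 in chow (SD, n = 5 each). Its change was 0.44 against chow (SE 0.12, limma adjusted p = 0.162) and 0.29 against HFD (SE 0.12, adjusted p = 0.99). Slc16a1, a monocarboxylate transporter that carries ketone bodies, varied widely, at 10.47 ± 0.81 in HFD+PE, 10.11 ± 0.62 in HFD and 10.31 ± 0.33 in chow. The TCA cycle, which also takes acetyl-CoA, had a median of 0.035 in HFD+PE against chow over 16 genes. Of these, Sucla2, a succinyl-CoA ligase subunit, was at 0.22 (SE 0.10), Idh3g, an isocitrate dehydrogenase subunit, at -0.15 (SE 0.07), and the succinate dehydrogenase subunits Sdhd and Sdhb at 0.24 (SE 0.13) and -0.01 (SE 0.11).

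The peroxisome runs a parallel beta-oxidation on very long chains. Over its 15 measured genes the median was 0.10 in HFD+PE against HFD and 0.07 against chow. At an unadjusted p under 0.05, 1 and 2 were higher, beside 1.64% and 6% of all genes. Ehhadh, its bifunctional enzyme, was at 11.27 ± 0.32 in HFD+PE, 10.99 ± 0.32 in HFD and 10.57 ± 0.29 in chow (SD, n = 5 each), a change of 0.70 against chow (SE 0.17, limma adjusted p = 0.139). Ehhadh and Ech1 were the 2 counted as higher than chow, and Ech1 was also counted with the further mitochondrial genes. Decr2, the peroxisomal counterpart of Decr1, was at 0.07 against chow (SE 0.08) and 0.18 against HFD (SE 0.08). Pex11a, a peroxisome division protein, was at 0.09 (SE 0.18) and 0.36 (SE 0.18).

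**Figure D5:**
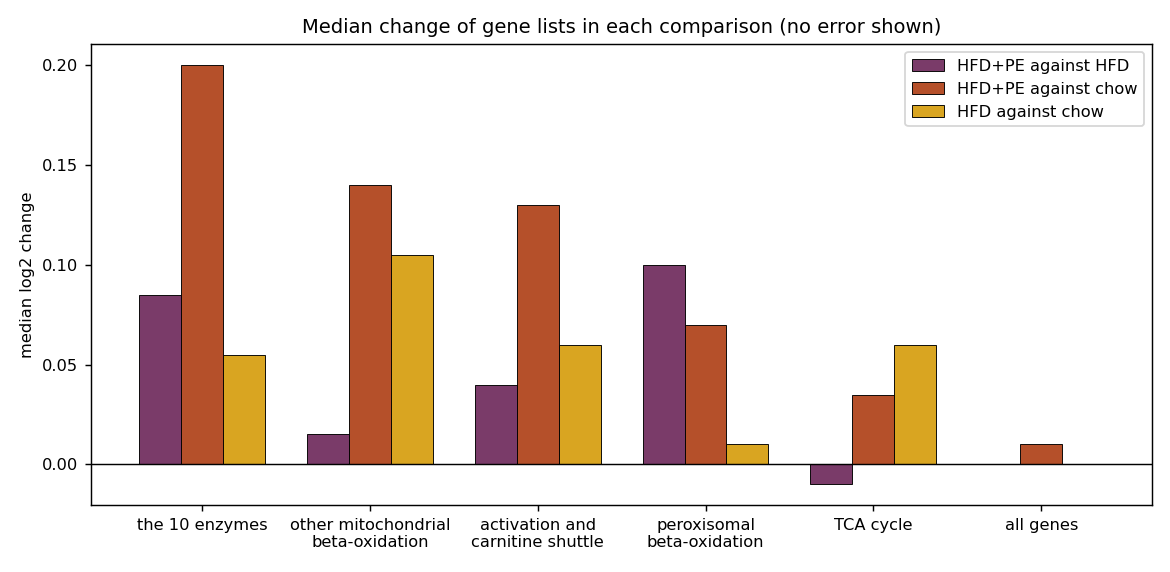
Median log2 change of the 10 enzymes and of related gene lists in HFD+PE against HFD, HFD+PE against chow and HFD against chow, with all genes at the right; bars start at 0 and carry no error, since genes are not replicates. In HFD+PE against chow the median is 0.20 for the 10 enzymes, 0.14 for the other mitochondrial genes and 0.035 for the TCA cycle.

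Known regulators had small median changes. Over 20 measured genes the median was 0.035 in HFD+PE against HFD (13 above 0 and 7 below), 0.00 in HFD+PE against chow (8 above and 9 below) and -0.04 in HFD against chow (3 above and 16 below). Of all genes, 49.2%, 51.1% and 49.9% were above 0 in these comparisons. At an unadjusted p under 0.05, 0 were higher and 2 lower in HFD+PE against HFD, beside 1.64% and 1.06% of all genes. In HFD+PE against chow 1 was higher and 2 lower, beside 6% and 5.14%. In HFD against chow 1 was higher and 0 lower, beside 4.08% and 3.57%. Acaca, the acetyl-CoA carboxylase whose product malonyl-CoA inhibits fatty acid entry, was at 7.99 ± 0.37 in HFD+PE, 8.48 ± 0.08 in HFD and 8.72 ± 0.16 in chow (SD, n = 5 each), a change of -0.73 against chow (SE 0.14, limma adjusted p = 0.104) and -0.49 against HFD (SE 0.14, adjusted p = 0.99). Prkab1, a subunit of the AMP-activated kinase, was at 0.49 (SE 0.16) in HFD+PE and 0.61 (SE 0.16) in HFD, both against chow. Ppargc1b, a transcriptional coactivator of mitochondrial genes, was at -0.43 against chow (SE 0.15) and -0.39 against HFD (SE 0.15). Rxra, the partner of PPAR-alpha, was at -0.06 and 0.16 (SE 0.11 for both).

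Genes listed as targets of PPAR-alpha in fasting had changes of both signs, and whether each is a target in rat liver was not tested. Vnn1, a pantetheinase, was at 9.46 ± 0.29 in HFD+PE, 8.93 ± 0.26 in HFD and 8.38 ± 0.54 in chow (SD, n = 5 each), a change of 1.08 against chow (SE 0.21, limma adjusted p = 0.104). Angptl4, a secreted inhibitor of lipoprotein lipase, was at -0.62 (SE 0.19), and the fatty acid hydroxylases Cyp4a8 and Cyp4a3 at -1.27 (SE 0.44) and -0.22 (SE 0.17). Of the 13 measured, 4 were above 0 and 8 below 0 in HFD+PE against chow, with a median of -0.08. Of all genes 51.1% were above 0 there. At an unadjusted p under 0.05, 1 was higher and 2 lower, beside 6% and 5.14% of all genes.

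The genes most like the mean of the 10 enzymes were found over the 15 animals by Pearson correlation. After centring on the group means they were Sdha (r = 0.944), Aldh7a1 (0.94), Psma2 (0.938), Tmco1 (0.935) and Nr3c2 (0.93). Without that centring they were Tmco1 (0.925), Acat1 (0.918), Mpc2 (0.916), Rab3ip (0.904) and Dnaja2 (0.896). The highest values of 14217 genes are selected, and the points share RNA and array, so the correlations describe these animals and carry no test.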

How the data were processed

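Liver RNA of 18 rats, as labelled, was measured on Affymetrix arrays, 6 per diet group. The submitters' processing notes name Affymetrix Expression Console with RMA, which corrects background, quantile-normalizes arrays and summarizes probes, and no version of either. The authors deposited log2 signals of 31099 probe sets, rounded to 0.1 (2.2 to 15); array medians were 5.4 to 5.5.

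Tests left out 57 control probe sets. Of the rest, 20826 named 1 gene symbol in the platform annotation, 436 several and 9780 none; 20758 were matched through the Entrez identifier, and 0 symbols changed. The brightest probe set stood for a gene (14217 genes), with no filter on dim genes. Array pairs with 0 probe sets over 2 log2 units apart were averaged.

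Diet groups were compared by limma 3.58.1 (R 4.3.3, statmod 1.5.0): 1 mean per group over 15 animals, eBayes with the default prior, two-sided tests and Benjamini-Hochberg adjustment over all genes. The fit was tested on simulated data. Lists are described by counts and medians. Of 191 listed symbols, markers included, 171 were measured; named genes are all 10 enzymes, up to 4 genes per list with the smallest F-test p and the 5 genes most like the mean of the enzymes, before and after centring on group means. The enzymes and lists were chosen with earlier results of these data known. Alternatives changed the arrays averaged, scaling, probe sets, dim-gene filter, variance model and covariates, and left out each animal.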

Additional observations from a re-analysis of the deposited data

Results flagged for a closer look

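In the 30 sets of 5 animals (10 enzymes in 3 groups), 4 held an animal far from the other 4 by Dixon's gap criterion, which chance meets in about 1 of 20 sets. Of these, 3 were the animal HFD+PE 1. Its Hadha signal was 10.1, against 10.6 to 10.7 in the other HFD+PE animals, its Acaa2 signal 11.5, against 11.9 to 12.0, and its Decr1 signal 11.7, against 12.0 to 12.05. HFD+PE 1 also had the largest 3′ minus 5′ difference of all animals, 3.7, the brightest hybridisation controls, 12.92, and the lowest macrophage marker mean, 7.50. The part of these measures in its low enzyme signals was not tested. Without it the change of HFD+PE against chow was 0.36 for Hadha (unadjusted p = 0.00586, limma adjusted p = 0.209), 0.46 for Acaa2 (adjusted p = 0.209) and 0.44 for Decr1 (adjusted p = 0.233). The fourth was Acadvl in HFD 4, at 10.3 against 10.2 in all the other HFD animals, which is 1 rounding step.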

How the results depend on the processing

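Over 28 alternatives, 10 enzymes and 3 comparisons, 0 of 840 values passed an adjusted p of 0.05, and 31 had the opposite sign to the reported one. Over all genes, HFD+PE against chow had 0 past that threshold, but 145 with 18 separate arrays, 119 with the replicate block added, 144 with the second number of the sample descriptions as a covariate, 2 with centring on the 75th percentile, 3 with only the dim hybridisation control set, and 0 to 26 without 1 animal (26 without HFD+PE 3-4). HFD against chow had 0, but 1 with the 75th percentile, 1 with the dim set and 0 to 1 without 1 animal; HFD+PE against HFD had 0 to 2 without 1 animal. The F test had 0, but 19 with 18 arrays, 29 with the replicate block, 1 with the 75th percentile, 3 with the dim set, 20 with the second number and 0 to 12 without 1 animal. At an unadjusted p under 0.05, HFD+PE against HFD had 384 genes, but 725 with 18 arrays, 711 with the replicate block, 736 with the second number and 610 with the dim set; HFD against chow had 1088, but 665 with the hybridisation covariate. The 2 enzymes at that level in HFD+PE against chow were 2 to 6 under the settings that left out no single animal. They were 5 with repeated quantile normalization and 6 with the 3′ minus 5′ covariate. Of all genes, 850 and 979 were higher under these settings, beside 853 in the reported fit. The median of the enzymes in HFD+PE against HFD, 0.085, was 0.055 with the 75th percentile (7 of 10 above 0), 0.129 with the hybridisation covariate and 0.163 with the dim set. In HFD against chow, 0.055, it was 0.035 with repeated quantile normalization, 0.025 with the dim set, 0.01 with the mean of all probe sets and -0.026 with the hybridisation covariate. Equal replicate numbers did not pair samples (correlations -0.305 to 0.189 over 18 pairs, 4 over 0.1).

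Signs turned for small changes. Centring on the 75th percentile gave -0.01 for Acadvl (HFD+PE against HFD) and -0.01 for Acads (HFD+PE against chow), and the dim set -0.058 for Acads and 0.025 for Slc25a20 (HFD+PE against chow). The 3′ minus 5′ covariate gave 0.105 for Slc25a20 (HFD+PE against chow), 0.021 for Cpt2 and 0.031 for Hadhb (HFD against chow). The hybridisation covariate gave -0.046 for Hadha, -0.008 for Acadvl and -0.001 for Decr1, and the mean of all probe sets -0.057 for Hadha (HFD against chow). Without 1 animal, HFD+PE against HFD ran from -0.038 to 0.13 for Acadl, -0.005 to 0.145 for Acadm and -0.02 to 0.08 for Acadvl; HFD+PE against chow from -0.03 to 0.072 for Acads and -0.065 to 0.02 for Slc25a20; HFD against chow from -0.10 to 0.01 for Acads, -0.115 to 0.035 for Cpt2, -0.032 to 0.118 for Hadha and -0.16 to 0.065 for Hadhb. The causes were not tested.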
